A study of Mus musculus with 4 samples.

Results

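*Afp*, *Ttr*, *Apoa1*, *Apoa4*, *Apob*, *Apoe*, *Rbp4*, *Lrp2*, *Cubn* and *Amn* are genes of the secretory and uptake functions of the visceral endoderm. They were found by exact match of the gene symbol in the expression files, which gave 10 genes of 53379, and 6 of the 10 had enough counts for a test, among 19148 tested genes. RNA came from DKO741, a mouse embryonic stem cell line made from E14 cells in which both alleles of *Terc*, the gene of the telomerase RNA, had been disrupted by the same targeting construct, with the loxP-flanked neo cassette removed by a Cre adenovirus after the first allele. The pre-ALT cells at PD100 and the post-ALT cells at PD800 (population doublings 100 and 800; ALT is the maintenance of telomeres without telomerase) had 2 libraries each. All 4 libraries are *Terc*-/- and come from 1 line, so a *Terc*+/+ culture or the other knock-out line takes no part in any comparison here. Stocks were kept on mouse embryonic fibroblast feeders, and feeder-free cells were used for RNA. The labels also call the time points passages. The libraries of a group are described as biological duplicates, without a statement that they came from separate cultures. The p-values thus rest on the spread between these libraries, estimated across genes.

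The visceral endoderm is the absorptive epithelium around the early mouse embryo, and it handles nutrients before a liver exists. It secretes carriers into the fluid around the embryo, among them alpha-fetoprotein (*Afp*), transthyretin (*Ttr*, thyroid hormone and retinol-binding protein), plasma retinol-binding protein (*Rbp4*) and the apolipoproteins. On its apical face, megalin (*Lrp2*) and cubilin (*Cubn*) take up vitamin carriers, lipoproteins and other proteins, and cubilin has no membrane span of its own but reaches the surface bound to amnionless (*Amn*).

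Of the 6 tested genes, *Cubn* and *Lrp2* fell in PD800 cells, and *Cubn* lost most of its RNA. *Apoe*, by far the most abundant of the 10 in TPM, was 1.7-fold lower, under the fold threshold used here. *Amn* and *Rbp4* had lower estimates and *Apob* a higher one, none of which passed the test. *Afp*, *Ttr*, *Apoa1* and *Apoa4*, the secreted products by which visceral endoderm is usually recognised, had at most 9 counts in any library at either time point, so the label of the gene set is not matched by its most typical secreted markers in these cells.

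The start regions of the genes of the receptor complex are shown because their estimates all lay below 0, and that of *Afp* as an example of a carrier near the floor. Each is 300 bases on the strand of the gene, 250 before and 50 after the RefSeq start, in GRCm38.p6. Capitals mark matches to the letters searched.
Cubn, chr2:13491827-13492126, minus strand: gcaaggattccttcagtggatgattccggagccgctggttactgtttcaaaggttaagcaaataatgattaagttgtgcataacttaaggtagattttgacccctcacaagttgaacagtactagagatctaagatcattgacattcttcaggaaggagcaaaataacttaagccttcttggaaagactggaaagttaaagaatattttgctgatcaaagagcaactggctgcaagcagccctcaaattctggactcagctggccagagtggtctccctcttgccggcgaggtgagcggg
Lrp2, chr2:69585980-69586279, minus strand: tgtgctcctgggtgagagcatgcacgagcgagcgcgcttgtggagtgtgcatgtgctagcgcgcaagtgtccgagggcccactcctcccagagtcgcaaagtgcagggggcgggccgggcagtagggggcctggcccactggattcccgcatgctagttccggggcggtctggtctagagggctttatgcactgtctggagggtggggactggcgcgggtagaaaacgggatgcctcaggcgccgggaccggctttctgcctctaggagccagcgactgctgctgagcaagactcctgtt
Amn, chr12:111270846-111271145, plus strand: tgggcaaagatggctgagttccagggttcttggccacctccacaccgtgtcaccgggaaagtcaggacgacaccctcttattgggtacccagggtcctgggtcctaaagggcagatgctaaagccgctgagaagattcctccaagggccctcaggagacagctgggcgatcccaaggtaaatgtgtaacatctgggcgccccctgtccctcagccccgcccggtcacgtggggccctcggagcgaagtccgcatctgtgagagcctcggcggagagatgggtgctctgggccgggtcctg
Afp, chr5:90490464-90490763, plus strand: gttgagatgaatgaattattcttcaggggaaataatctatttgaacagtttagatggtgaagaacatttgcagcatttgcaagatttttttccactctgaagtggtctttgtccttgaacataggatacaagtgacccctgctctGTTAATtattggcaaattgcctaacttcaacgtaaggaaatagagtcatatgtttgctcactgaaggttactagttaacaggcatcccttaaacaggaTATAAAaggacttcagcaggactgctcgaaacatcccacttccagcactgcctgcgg
On both strands, the letters searched were AGATAA for the GATA factors, GTTAAT for an HNF1 half-site, CAAAGTCCA for HNF4, TGTTTAC for FOXA factors, AACAAT for SOX factors and, for the TATA box, the letters TATAAA. Among the 32851 RefSeq windows of this length, AGATAA or its reverse complement was in 11.2%, GTTAAT in 7.1%, CAAAGTCCA in 0.475%, TGTTTAC in 3.65%, AACAAT in 10.7% and TATAAA in 13.6%. The *Cubn*, *Lrp2* and *Amn* windows held none of them. The *Afp* window held GTTAAT at -105 and TATAAA at -7 from the RefSeq start, counted to the first base of the match. RefSeq starts can differ from the gene bounds given below, and the *Cubn* window does not reach its bound. Windows of *Apoe* and *Rbp4*, also with estimates below 0, are not shown. Both genes had FOXA and TATA matches, and *Apoe* an HNF1 half-site too. The *Apob* window held TATAAA, and those of *Apoa1* and *Apoa4* held none. The windows shown also differed in CpG pairs, with 5 in *Cubn*, 3 in *Afp*, 15 in *Amn* and 20 in *Lrp2*, against a median of 7 over all windows. A match of letters is a description and not a binding site.

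Each library held 32454121 to 38492149 expected counts (RSEM's estimate of the read pairs from a gene), and 3 counts, taken as the floor of detection, correspond to 0.0743 to 0.0934 CPM (counts scaled to the TMM-adjusted library total). The floor covers counting error only. *Terc* itself had 1 count in PD100 replicate 1 and 0 in the other 3 libraries. Across genes, log2 CPM correlated at 0.984 within PD100 and at 0.992 within PD800, and at 0.935 to 0.944 between the groups. A gene was called where edgeR's quasi-likelihood test gave a Benjamini-Hochberg adjusted p under 0.01 and the fold change was over 2. By this rule 1202 genes, 6.28% of those tested, were higher in PD800, and 1686, or 8.81%, were lower. Of the 6 tested members, 2 were called lower and 0 higher by edgeR, and 1 was higher at an unadjusted p under 0.05 (*Apob*), with the same counts of calls by DESeq2. Of the 6, 3 had an adjusted p under 0.01 whatever the fold, against 28.5% of all tested genes in either direction. Their median log2 fold change (PD800 over PD100, as throughout) was -1.11, beside 0.01 over all tested genes.

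**Figure D1:**
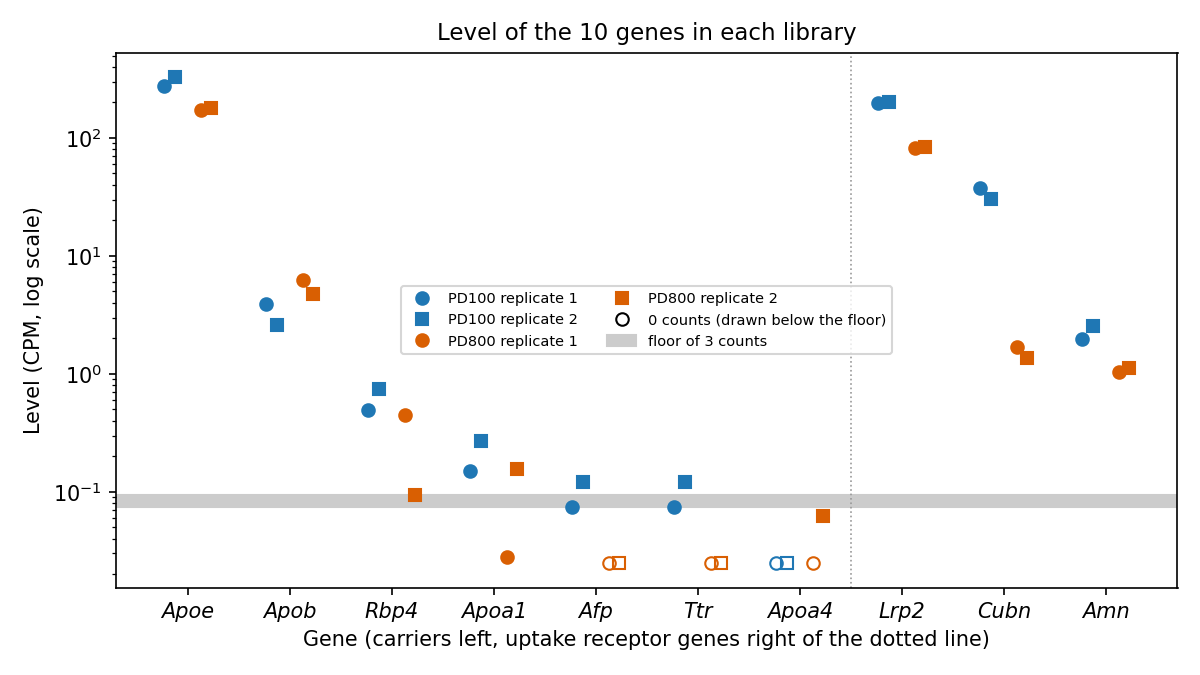
Level of each of the 10 genes in each library, in CPM on a log scale, with PD100 in blue, PD800 in orange, circles for replicate 1 and squares for replicate 2. The grey band is the floor of 3 counts (0.0743 to 0.0934 CPM) and open symbols are libraries with 0 counts: CPM is not scaled for gene length, so the plot compares libraries within a gene, *Cubn* shows the widest gap between the groups among the tested genes, and *Afp*, *Ttr*, *Apoa1* and *Apoa4* lie around the floor.

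*Lrp2* (ENSMUSG00000027070.14) encodes megalin, the large receptor of the complex, and lies on the minus strand of chromosome 2 from 69424340 to 69586065 in GRCm38. It had 198 and 202 CPM in PD100 replicates 1 and 2, and 82.8 and 83.7 CPM in PD800 replicates 1 and 2, from at least 2688 counts in each library. The groups did not overlap, and the replicates of each nearly coincided. *Lrp2* fell by 1.27 on the log2 scale (SE 0.07, 95% interval -1.44 to -1.09, edgeR adjusted p = 0.000107), or 2.41-fold. Where edgeR tested whether the fold itself exceeded 2, the adjusted p was 0.015, which does not pass the threshold, against at most 0.00428 under the other alternatives.

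*Cubn* (ENSMUSG00000026726.10), the gene of cubilin, lies on the minus strand of the same chromosome from 13276338 to 13491813. Its counts were 1523 and 1003 in PD100 and 61 and 44 in PD800, which correspond to 37.7 and 30.1 CPM against 1.7 and 1.37 CPM. Both PD800 libraries thus lay far below both PD100 libraries, while still well above the floor. *Cubn* fell by 4.46 on the log2 scale (SE 0.18, 95% interval -4.89 to -4.03, edgeR adjusted p = 4.88e-05), 22-fold, and was called lower under every alternative tried. On log2(TPM + 1), where the added 1 exceeds its PD800 level, the difference was -1.63. A plus-strand transcript, *Gm13270*, overlaps the gene and had 27.1, 18.6, 15 and 11 expected counts in the same order of libraries. The study shows its RNA-seq by direction of transcription, but strand was not stated to be used in counting. Whether reads of one were counted for the other was not tested.

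*Amn* (ENSMUSG00000021278.7), on the plus strand of chromosome 12 from 111271095 to 111276426, encodes amnionless, the membrane anchor that cubilin needs. It had 80 and 85 counts at PD100 and 37 and 36 at PD800, or 1.98 and 2.55 CPM against 1.03 and 1.12 CPM. The groups did not overlap. The log2 fold change was -1.07 (SE 0.23, 95% interval -1.64 to -0.50), and with an edgeR adjusted p of 0.0123 it was not called. It was called under 5 alternatives, among them an adjusted p under 0.05, a stricter filter on counts, no filter at all and, at -1.24, the fit without PD100 replicate 1. RSEM's mean transcript length for *Amn* was 1442 and 1662 bases in PD100 and 1051 and 1240 bases in PD800, and the annotation lists retained-intron transcripts of 353 and 1024 bases beside the coding one of 1701 bases, so the smaller difference in TPM below includes this change of length.

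**Figure D2:**
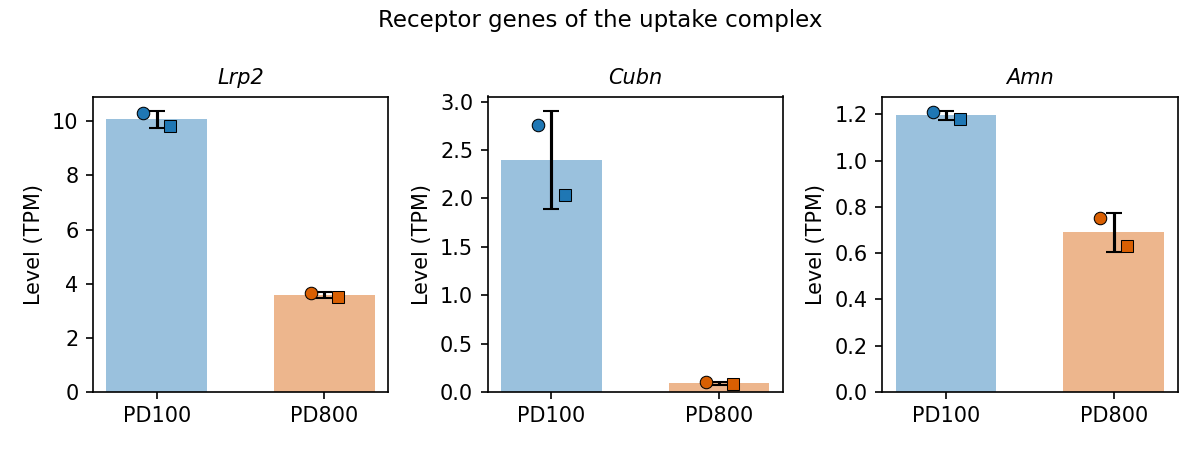
TPM of *Lrp2*, *Cubn* and *Amn* in PD100 and PD800, each panel with its own axis from 0, bars for the mean of 2 libraries, error bars for the SD and points for the libraries. All 3 genes were lower in both PD800 libraries, and as a ratio the gap was widest for *Cubn* (2.4 against 0.09 TPM).

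Per length, the 3 genes of the complex were not at equal levels, and their order changed. In TPM, *Lrp2* was at 10.1 ± 0.311 in PD100 and 3.58 ± 0.099 in PD800 (SD, n = 2 here and below). *Cubn* was at 2.4 ± 0.509 and 0.09 ± 0.0141. *Amn* was at 1.18 to 1.21 in PD100 and 0.63 to 0.75 in PD800. Thus *Cubn* RNA exceeded *Amn* RNA in both PD100 libraries and lay below it in both PD800 libraries.

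The TPM ratio of *Cubn* to *Lrp2* was 0.268 and 0.207 in PD100, and 0.0274 and 0.0228 in PD800. The log2 difference of this ratio was -3.24, or -3.20 when computed from counts. The ratio of *Amn* to *Cubn* went from 0.438 and 0.578 to 7.5 and 7.88. Neither ratio overlapped between the groups. For the same ratios in counts, the exact permutation p (two-sided) was 0.333 each, the smallest that 2 libraries against 2 can give. The ratio of *Amn* to *Lrp2* was 0.118 and 0.12 in PD100, and 0.205 and 0.179 in PD800, but the log2 difference of 0.69 shrank to 0.20 in counts, so that it depended on the length RSEM assigned to *Amn*.

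Among the carriers, *Apoe* (ENSMUSG00000002985.16, chromosome 7 from 19696109 to 19699188, minus strand) held nearly all of the RNA. Apolipoprotein E is a ligand of lipoprotein receptors, megalin included, and is also made by many cells other than visceral endoderm. It had 274 and 327 CPM in PD100 and 173 and 181 CPM in PD800, with no overlap between the groups. Its log2 fold change was -0.76 (SE 0.10, 95% interval -1.02 to -0.51, edgeR adjusted p = 0.00216), past the p threshold but not the fold threshold. In TPM it was at 249 ± 9.07 in PD100 and 127 ± 0.516 in PD800, in the range from the 99.1 to the 99.5 percentile of all genes. *Apoe* made up 94% and 94.7% of the summed TPM of the 10 genes in PD100 and 96% and 96.5% in PD800. Its TPM ratio to *Lrp2* was 23.6 and 26 in PD100 and 34.6 and 36.1 in PD800 (exact permutation p of the count ratio = 0.333, two-sided).

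*Apob* (ENSMUSG00000020609.14, chromosome 12 from 7977648 to 8016835, plus strand) encodes the structural protein of the lipoproteins that visceral endoderm exports. It had 157 and 87 counts at PD100 and 226 and 152 at PD800, or 3.89 and 2.61 CPM against 6.29 and 4.73 CPM. In CPM the groups did not overlap, whereas in TPM they did, at 0.39 and 0.17 against 0.42 and 0.25. The log2 fold change was 0.76 (SE 0.24, 95% interval 0.16 to 1.35, edgeR adjusted p = 0.0473), which was not called. Without PD100 replicate 1 the value was 1.09 and was called higher (edgeR adjusted p = 0.00145), and over all alternatives it ran from 0.06 to 1.09, with adjusted p from 0.000375 to 0.737. RSEM's mean transcript length for *Apob* ranged from 7993 to 11588 bases over the libraries, against 13934 for its longest transcript.

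*Rbp4* (ENSMUSG00000024990.12, chromosome 19 from 38116629 to 38125281, minus strand), the retinol carrier that forms a complex with transthyretin and is taken up by megalin, had 20 and 25 counts at PD100 and 16 and 3 at PD800. The PD800 replicates were far apart, at 0.445 and 0.0934 CPM, the latter at the floor, and the higher of them lay close to PD100 replicate 1 at 0.495 CPM. The log2 fold change of -1.15 (SE 0.62, 95% interval -2.66 to 0.37) had an edgeR adjusted p of 0.181. It was -2.68 without PD800 replicate 1 and -0.47 without PD800 replicate 2, so that the library left out decided its size.

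The other 4 carriers had too few counts for a test. *Afp* (ENSMUSG00000054932.6, chromosome 5 from 90490737 to 90508907), the alpha-fetoprotein gene whose start region is given above, had 3 and 4 counts at PD100 and 0 in either library of PD800, and so did *Ttr* (ENSMUSG00000061808.3). *Apoa1* (ENSMUSG00000032083.8, chromosome 9 from 46228580 to 46230466), the main protein of high-density lipoproteins, had 6 and 9 counts at PD100 and 1 and 5 at PD800. Scaled for depth, its ratio of PD100 to PD800 was 2.31, with a 95% counting interval from 0.846 to 7.26. *Apoa4* (ENSMUSG00000032080.6), its neighbour and another lipoprotein component, had 2 counts in PD800 replicate 2 and 0 elsewhere. These counts were too few to enter the test, and no ratio is given for *Afp*, *Ttr* and *Apoa4*.

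**Figure D3:**
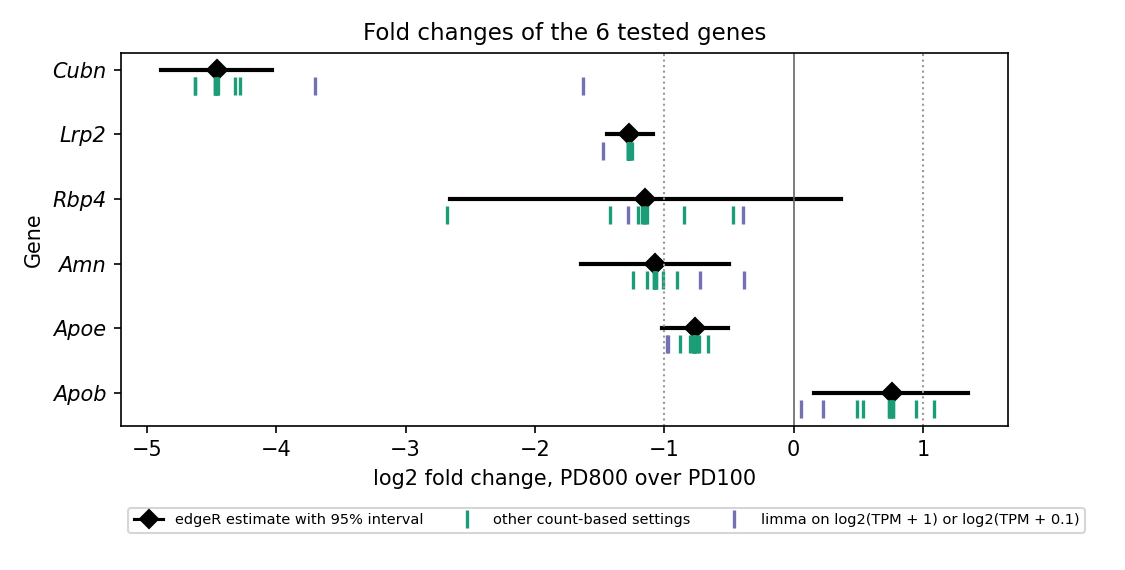
Log2 fold change of the 6 tested genes, PD800 over PD100, with edgeR's estimate and 95% interval in black and the values under other settings as ticks (green for count-based settings, purple for limma on TPM), and dotted lines at a fold of 2. The intervals of *Cubn* and *Lrp2* lie wholly beyond a fold of 2 on the lower side, that of *Rbp4* spans 0, and the purple ticks of *Cubn* stand apart at -3.70 and -1.63.

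In TPM order, *Apoe* led in PD100, followed by *Lrp2*, *Cubn*, *Amn*, *Rbp4*, *Apob* and *Apoa1*, with *Ttr*, *Afp* and *Apoa4* last. Of the neighbours in that order, only *Apob* and *Apoa1* overlapped in range. In PD800 the order was *Apoe*, *Lrp2*, *Amn*, *Apob*, *Rbp4*, *Cubn*, *Apoa1* and *Apoa4*, with *Afp* and *Ttr* both at 0 TPM. Each gene from *Apob* on overlapped with the next. The summed TPM of the 7 carriers was 244 and 257 in PD100 and 127 in both replicates of PD800, nearly all of it *Apoe*. The summed TPM of the 3 receptor genes was 14.2 and 13.1 in PD100 and 4.5 and 4.22 in PD800.

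The genes lie on chromosomes 2, 5, 7, 9, 12, 18 and 19, and most genes around *Cubn* and *Lrp2* were not called. Near *Cubn*, the median log2 fold change of the 20 nearest tested genes was 0.11, with 1 called lower, and near *Lrp2* it was 0.31, with 2 called lower and 1 higher. On either side of *Cubn*, the overlapping *Gm13270* was at -0.70 (edgeR adjusted p = 0.124) and *Trdmt1*, which encodes a tRNA methyltransferase, was at 0.18 (edgeR adjusted p = 0.312). Beside *Lrp2*, *Bbs5*, a subunit of the cilium complex that sorts membrane proteins, was at 0.32 (edgeR adjusted p = 0.0617), whereas *Abcb11*, the bile salt export pump, was called higher from 3, 1, 25 and 14 counts, with a PD100 to PD800 ratio of 0.0947 (95% counting interval 0.0246 to 0.262).

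The 20 genes nearest to *Apoe* had a median of -0.20, with 2 called lower. *Apoc1*, an apolipoprotein of the same gene cluster, was at 0.39 (edgeR adjusted p = 0.115), and *Tomm40*, a pore of the mitochondrial outer membrane, at 0.02. The other cluster members, *Apoc2* and *Apoc4*, had at most 3 counts in any library. In the *Apoa1* cluster, *Apoc3* had 0 counts in all 4 libraries and *Apoa5* at most 2, and beside *Afp* the albumin family genes *Alb* and *Afm* had 0 throughout. The 20 genes nearest to *Amn* had a median of 0.83, with 5 called higher and 1 lower, the median furthest from 0 among the 10 neighbourhoods and opposite in sign to the estimate of its gene. Of the nearest tested genes on each side of the 10, *Abcb11* was the one called, and the others ranged from -1.10 (*Rassf6*, beside *Afp*) to 0.99 (*A230087F16Rik*, beside *Amn*).

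The genes whose 4 log2 CPM values, centred on their mean, lay nearest to those of *Cubn* were *Gbp2*, *Plat* and *Bmper*, at Euclidean distances of 0.156, 0.196 and 0.249 over the 4 libraries among 14689 genes compared. *Gbp2* encodes an interferon-induced GTPase, *Plat* tissue plasminogen activator and *Bmper* a secreted BMP regulator. Their log2 fold changes were -4.38, -4.94 and -5.73. The 4 libraries form only 2 groups, so the distance describes little beyond the group difference and the spread within each.

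Genes of the same pathways were then counted from lists of the regulators and functional partners of the 10 genes. The first list held regulators of endoderm, of which 18 of 19 were tested, 11 were called lower and 2 higher, with a median log2 fold change of -2.20. On log2(TPM + 1), limma called 7 lower and 0 higher. *Gata4*, a GATA factor of primitive and visceral endoderm, had 1451 and 842 counts at PD100 and 146 and 136 at PD800, and fell by 2.88 (SE 0.19, edgeR adjusted p = 0.000179). *Gata6* fell too, with a log2 fold change of -3.66, and so did *Sox17*, at -6.03 (711 and 581 counts against 9 and 9), *Pdgfra*, the receptor that marks primitive endoderm, at -4.93, and the forkhead factor *Foxq1*, at -4.35 (-0.88 and not called on log2(TPM + 1)).

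*Foxa2* and *Hnf4a*, transcription factors of visceral endoderm and liver, were also called lower, from few PD800 counts. *Foxa2* had 230, 147, 1 and 1 counts, a PD100 to PD800 ratio of 174 with a 95% counting interval of 47.8 to 1442. *Hnf4a* had 70, 52, 4 and 2 counts (ratio 18.8, 8.38 to 52.1). Not all regulators went this way. *Eomes*, a T-box factor of early endoderm and trophoblast, rose by 1.98 (SE 0.17, edgeR adjusted p = 0.000414), from 91 and 67 to 335 and 242 counts, though it was not called by limma on TPM, and *Foxa1*, with 3, 1, 15 and 13 counts, was called higher by edgeR, though not by DESeq2, at a PD100 to PD800 ratio of 0.132 (0.0336 to 0.377).

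**Figure D4:**
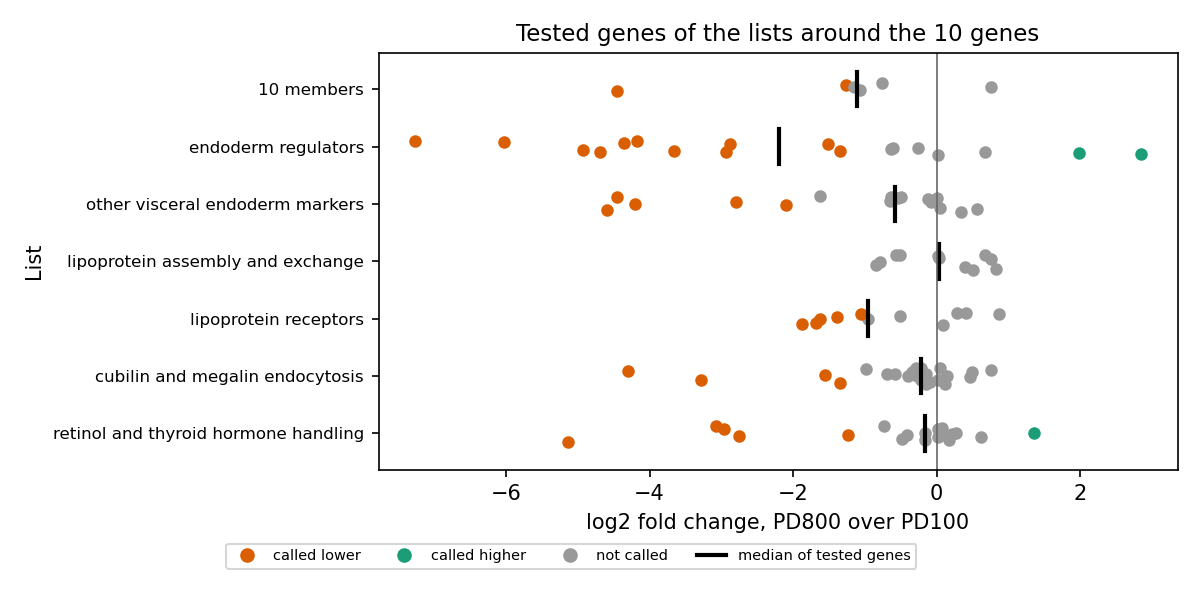
Log2 fold change, PD800 over PD100, of each tested gene of the 10 members and of 6 lists around them, in orange where called lower, green where called higher and grey otherwise, with a black bar at the median. The endoderm regulators reach furthest down (median -2.20), while none of the lipoprotein assembly genes was called (median 0.03).

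Of 19 other markers of visceral endoderm, 16 were tested, 5 were called lower and 0 higher, with a median of -0.59. Here and in the lists that follow, a count of 0 higher is edgeR's and was also 0 by DESeq2, while 2 of these markers were higher at an unadjusted p under 0.05. Those called were mostly secreted signals, namely *Bmp2*, with a log2 fold change of -4.59 (SE 0.58), the Wnt antagonist *Dkk1*, at -4.45 (SE 0.44), and the Nodal antagonist *Lefty1*, at -4.20 (SE 0.11), from 1747 and 1610 to 93 and 75.6 counts. *Bmp2* had 1 and 6 counts in PD800 and *Dkk1* 2 and 8, and without PD800 replicate 1 they were at -3.75 and -3.71, without PD800 replicate 2 at -6.36 and -5.81. On log2(TPM + 1) they were at -0.61 and -0.99 and were not called, and limma called 3 genes of the list lower. *Lefty1* has a close paralog, *Lefty2*, and its fractional count shows reads divided between genes. Its value depends on that division, which was not examined. The co-activator *Cited1*, at -2.80 (SE 0.29), and the tight junction gene *Cldn6* were called lower too. *Vil1*, the gene of the microvillus protein villin, was at -0.54 (edgeR adjusted p = 0.0856), and *Trf*, the transferrin gene, had 303 and 309 counts at PD100 and 322 and 266 at PD800, with overlapping levels.

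Of 17 genes of lipoprotein assembly and exchange, 11 were tested, and 0 were called in either direction by edgeR or DESeq2. At an unadjusted p under 0.05, 3 were higher and 3 lower, and limma on log2(TPM + 1) called 1 lower. *Mttp*, which encodes the protein that loads lipid onto apolipoprotein B, had 319 and 282 counts at PD100 and 289 and 275 at PD800, and its levels overlapped between the groups. *Apoa2* had 3, 4, 0 and 3 counts, and 5 genes of the list were at or under the floor in all 4 libraries. Of the receptors of lipoproteins and their partners, all 11 were tested, 5 were called lower and 0 higher (2 at an unadjusted p under 0.05), and the median was -0.96, whereas limma on log2(TPM + 1) called 2 lower.

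*Vldlr*, a receptor of triglyceride-rich lipoproteins, had 162 and 176 counts at PD100 and 49 and 49 at PD800, with no overlap, and fell by 1.68 (SE 0.21, edgeR adjusted p = 0.00166), though on log2(TPM + 1) it was at -0.63 and not called. *Lrp5*, a relative that acts as a Wnt co-receptor, fell by 1.63 (SE 0.10), whereas *Lrp6*, the other Wnt co-receptor, was at 0.87 (SE 0.09, edgeR adjusted p = 0.000757), under the fold threshold.

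Of 24 genes that act with cubilin and megalin in endocytosis and in the breakdown or passage of their ligands, 23 were tested, 4 were called lower and 0 higher (3 at an unadjusted p under 0.05), and the median was -0.22, with 5 lower by limma on log2(TPM + 1). *Dab2*, the adaptor that links megalin to clathrin, had 1246 and 748 counts at PD100 and 81 and 105 at PD800, and fell by 3.28 (SE 0.23, edgeR adjusted p = 0.000208). The lysosomal proteases *Ctsh* and *Ctsl* fell, with log2 fold changes of -4.30 (615, 462, 25 and 25 counts) and -1.34. *Clcn5*, an endosomal chloride and proton exchanger needed for uptake in the kidney tubule, fell by 1.56. *Gipc1*, an adaptor that binds the tail of megalin, was at -0.34 (edgeR adjusted p = 0.112), and the remaining 18 tested genes, among them clathrin and the Rab genes, were not called.

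Of 26 genes of retinol and thyroid hormone handling, the cargo of *Rbp4* and *Ttr*, 19 were tested, 5 were called lower and 1 higher, with a median of -0.16, whereas limma on log2(TPM + 1) called 1 lower and 0 higher. *Stra6*, the cell surface receptor of retinol-binding protein, fell by 3.08 (SE 0.41, edgeR adjusted p = 0.00194), from 73 and 40 to 8 and 4 counts. Its level was low in both groups, at 0.64 and 0.44 TPM in PD100 and 0.05 and 0.03 TPM in PD800. *Cyp26a1*, which degrades retinoic acid, fell by 5.13 (286, 254, 7 and 7 counts), and *Rdh10*, which oxidises retinol, was called lower at -1.23 (76 and 112 counts in PD800), but not by limma on TPM nor without PD800 replicate 1, where it was at -0.91. The amino acid and thyroid hormone transporter *Slc16a10* fell, with a log2 fold change of -2.97 (-0.74 and not called on log2(TPM + 1)).

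*Aldh1a3*, an enzyme that makes retinoic acid, rose by 1.35 (SE 0.10), though on log2(TPM + 1) it was at 0.99 and not called. *Rbp2*, a cellular retinol-binding protein gene, had 1 count in all. The lists were chosen with results of these data known, and their counts describe these libraries only.

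**Figure D5:**
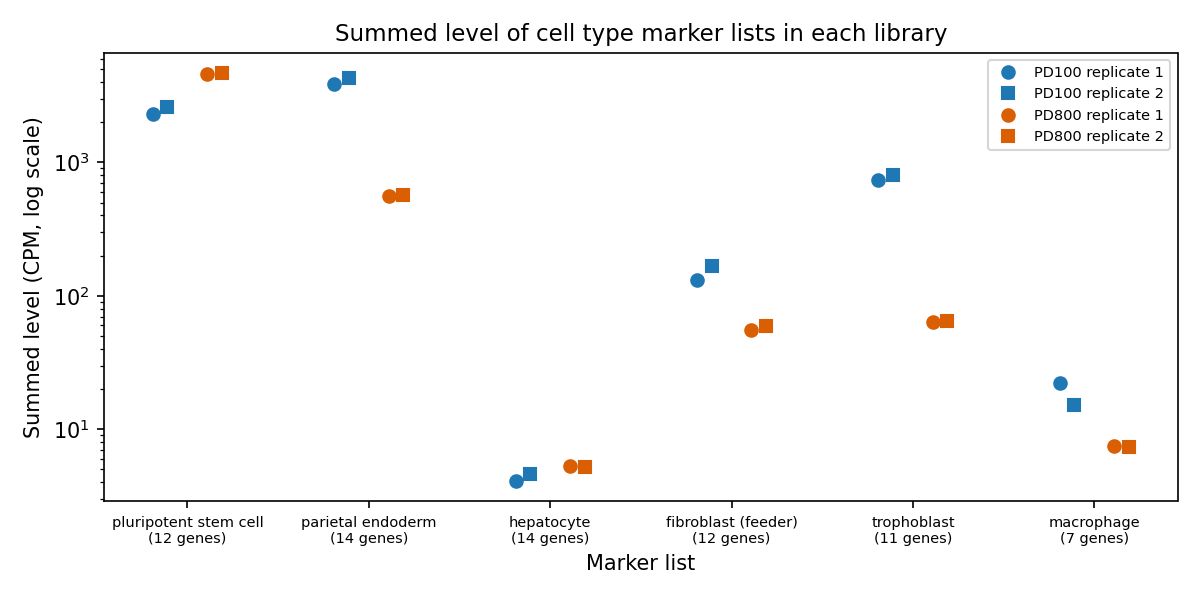
Summed CPM of each cell type marker list in each library, on a log scale, with PD100 in blue, PD800 in orange, circles for replicate 1 and squares for replicate 2. The parietal endoderm and trophoblast lists are lower in both PD800 libraries, the pluripotent list is higher, the fibroblast and macrophage lists are lower by smaller margins, and the hepatocyte list lies between 4.11 and 5.35 CPM in all.

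The lower uptake genes were accompanied by lower markers of other cell types, which the same RNA holds. Of 14 parietal endoderm markers, all tested, 12 were called lower and 0 higher (0 also at an unadjusted p under 0.05), and their summed level was 3842 to 4320 CPM in PD100 and 557 to 573 CPM in PD800. The matrix gene *Sparc* fell, at a log2 fold change of -2.71, as did *Plat*, at -4.94, and the keratin gene *Krt19*, at -5.43. *Sox7* belongs both to this list and to that of the regulators. Of the 11 trophoblast markers, 8 were tested and 6 called lower (5 by DESeq2 and 4 by limma on log2(TPM + 1)), among them the keratin genes *Krt8* and *Krt18*, which endoderm also expresses, and the sum was 736 to 809 CPM in PD100 and 63.8 to 65.1 CPM in PD800. *Krt8* and *Krt18* carried most of it, and the other 9 markers summed to 53.8 to 57.8 CPM in PD100 and 34.9 to 35.4 CPM in PD800. *Tfap2c* was at 0.30, and the placental hormone gene *Prl3d1* was at 0 in every library.

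Fibroblast markers, relevant because stocks had grown on feeders, gave 6 called lower of 11 tested among 12 (2 by limma on log2(TPM + 1)), and sums of 132 to 166 CPM in PD100 and 55.9 to 59.2 CPM in PD800. *Col1a1* was called lower at -3.07, though not on log2(TPM + 1), and *Col1a2* at -2.33, whereas *Fbln1* was at 0.84 (edgeR adjusted p = 0.00167, under the fold threshold), *Twist1* at 0.34 and *Pdgfrb* at -0.08, and *Lum* had 1 count in all. None of the list was called higher by edgeR or DESeq2, and 1 was higher at an unadjusted p under 0.05. Macrophage markers, of which 4 of 7 were tested and 3 called lower (1 by limma on log2(TPM + 1)), summed to 15.2 to 22.3 CPM in PD100 and 7.35 to 7.55 CPM in PD800. For the hepatocyte list, 7 of 14 genes were at or under the floor in all libraries, *Alb* was at 0, 0 of the 4 tested genes were called in either direction by edgeR or DESeq2 (2 higher and 1 lower at an unadjusted p under 0.05), and the sum was 4.11 to 5.35 CPM over all libraries.

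The summed level of pluripotency markers moved the opposite way, from 2312 to 2607 CPM in PD100 to 4567 to 4646 CPM in PD800. Of the 12 markers, all tested, 6 were called higher by edgeR and 0 lower (0 also at an unadjusted p under 0.05 and by DESeq2). *Nanog* rose by 2.32 and *Klf4* by 2.84, and *Pou5f1*, abundant at 16800 counts or more in each library, was at 0.35 (edgeR adjusted p = 0.0194). The high *Pou5f1* counts match the labelled stem cell type in both groups. In bulk RNA, fewer cells of a type and less RNA per cell cannot be told apart. Any part of other cell types in the lower levels of *Cubn*, *Lrp2* and the endoderm lists was not tested. From single-cell RNA-seq, the study reports that PD100 and PD800 cells formed distinct populations, with high homogeneity in each. Those single-cell data were not used here.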

How the data were processed

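Bulk RNA-seq of DKO741 cells at PD100 and PD800, 2 libraries each, was analysed from gene tables. RNA is given as total RNA in the labels, while the study's text speaks of mRNA. With STAR 2.5.3a the authors aligned read pairs of 101 bases to mm10, and they deposited the expected count that RSEM 1.3.0 estimated for each gene, which divides reads shared between genes and is not scaled for depth. The authors also deposited TPM values, scaled by RSEM for gene length and to a common total. DESeq2 1.18.1 is also in the submitters' processing notes. The annotation release is not given in the sources used here. Of 53379 gene identifiers, 53274 were found, version numbers left out, in GENCODE M21 (GRCm38), which gave coordinates.

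Expected counts were rounded to whole numbers. The test was edgeR's quasi-likelihood test (version 4.0.16, R 4.3.3; two-sided, TMM factors, expression filter filterByExpr at min.count 10, Benjamini-Hochberg adjustment over all tested genes). The standard error is the log2 fold change divided by the square root of F. Levels of different genes were compared in TPM, and sums over marker lists in CPM serve only to compare libraries. With 2 libraries against 2, the smallest exact permutation p is 0.333, and the p-values of edgeR rest on the spread estimated across genes. The fitting procedure was also run on simulated data, with the outcome not reported here. The chi-square per degree of freedom between replicates was 64.6 in PD100 and 9.89 in PD800, so that replicates differed by more than sampling noise.

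The members and lists were chosen with earlier results of these data known. Named were all members, the first 2 genes of each list and its called genes that averaged 1 CPM or more, at most 4 in each direction for pathway lists and 2 for marker lists by absolute log2 fold change, the nearest tested neighbours, and the 3 genes most like *Cubn*, with 0.5 CPM added before logs and a mean of at least 1 CPM. Other genes, such as *Hnf4a*, *Foxa1*, *Stra6*, *Cldn6*, *Lrp6*, *Fbln1*, *Twist1*, *Pdgfrb*, *Tfap2c*, *Lum*, *Prl3d1* and cluster neighbours, were named after their values were seen. Alternatives were DESeq2 1.42.0, its size factors, upper-quartile factors, other filters and thresholds, a replicate block, limma 3.58.1 on log2(TPM + 1) and log2(TPM + 0.1), and each library left out. Start regions were taken from RefSeq (GRCm38.p6), with 9 of the 10 members in the table, *Ttr* not among them. Some genes that this rule names are not reported here. Protein sequences were not used here.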

Additional observations from a re-analysis of the deposited data

How the results depend on the processing

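*Cubn* and *Lrp2* were called lower under all alternatives, except *Lrp2* where a fold over 2 was tested in the model, which left 1 member called lower. Leaving out single libraries, the other of its group being assumed to vary like the pair of the other group, gave 0 to 1 members called higher (*Apob* without PD100 replicate 1, at 1.09) and 2 to 3 called lower. *Amn* was called at -1.24 without PD100 replicate 1, at -1.07 with no expression filter, at -1.08 with at least 10 counts in every library, a filter that removed *Rbp4*, and at an adjusted p under 0.05. Same-numbered libraries deviated together at a correlation of 0.265 over genes, but 2 pairs are too few to take the numbers as pairing. With the replicate number as a block (replicate block), *Amn* was called at -1.06 (edgeR adjusted p = 0.00257), which gave 3 members called lower, the visceral endoderm markers had 6 called lower in place of 5, and over all genes 1461 were higher and 1956 lower.

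Over all genes, 1202 called higher and 1686 lower (41.6% of calls higher) became 2513 and 2943 with no fold threshold, 386 and 685 with the fold tested in the model, 274 and 872 by limma on log2(TPM + 1) (23.9% higher) and 454 and 1605 on log2(TPM + 0.1) (22% higher). On those TPM scales the median of all genes was -0.12 and -0.21, against 0.01. The 33 calls in the 6 pathway lists (marker lists not counted) became 54 with no fold threshold and 19 by limma on log2(TPM + 1), 24 with the fold tested in the model and 23 with at least 10 counts in every library, a filter that removes genes that passed only through the group where they were high. Of the marker lists, limma on log2(TPM + 1) called 11 parietal endoderm, 4 trophoblast, 2 fibroblast and 1 macrophage genes lower, in place of 12, 6, 6 and 3, and 5 pluripotency genes higher in place of 6. The trophoblast marker *Cdx2* lost its call by DESeq2, by limma on both TPM scales and without 3 of the 4 libraries in turn. *Trf* and *Mttp*, near 0, reversed to -0.31 and -0.19 on log2(TPM + 0.1) and to -0.25 and -0.13 on log2(TPM + 1), and ranged from -0.10 to 0.18 and from -0.02 to 0.07 with single libraries left out. The cause was not tested. Of the values of single genes, 568 kept their direction and side of the threshold, 31 no longer passed it, 8 newly passed it and 8 reversed. With 2 libraries a group, low genes such as *Rbp4* and the carriers at the floor could not be resolved.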
